A study of Mus musculus with 12 samples.

Results

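Pou3f1, Pou3f2, Pou3f3 and Pou3f4 are the class III POU genes of the mouse. They were taken by symbol from a table of 21253 genes measured by RNA-seq, and all 4 were found. Each encodes a transcription factor with a POU-specific domain joined to a homeodomain, which together bind an octamer motif in DNA. In neural progenitors these factors bind next to SOX proteins such as Sox2, on enhancers of genes that keep the cells in a progenitor state or start neurogenesis. Pou3f1 (also called Oct6) is known from the epiblast and from the first steps of neural commitment. Pou3f2 (Brn2), Pou3f3 (Brn1) and Pou3f4 (Brn4) are known from the developing neural tube and brain.

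The libraries came from mouse embryonic stem cells (mESC) and from anterior neural progenitors (AntNPC) made from them. Each cell type was profiled from a WT line, E14, and from a line labelled EED-/-, giving 2 libraries of WT mESC, 2 of EED-/- mESC, 4 of WT AntNPC and 4 of EED-/- AntNPC. The EED protein belongs to the core of PRC2, a Polycomb complex that methylates histone H3 at silent developmental genes. All mESC were grown in serum with LIF on gelatin. All AntNPC were differentiated for 5 days in N2B27 medium, which received bFGF at 10 ng/ml in the first 3 days and the WNT pathway inhibitor Xav939 at 5 uM from day 2. Each genotype was 1 line, so genotype and other differences between the lines cannot be told apart. The labels do not say whether replicates were separate cultures, and p-values then measure only how far these samples spread, which may be technical. The libraries were made from bulk cells, so fewer expressing cells and less RNA per cell cannot be told apart.

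Eed RNA did not check the genotype label. Its level was 66.2 and 163 FPKM (fragments scaled to transcript length and library size) in the WT mESC and 644 and 376 FPKM in the mESC labelled EED-/-. It was 42.0 to 63.4 FPKM in WT AntNPC and 171 to 202 FPKM in AntNPC labelled EED-/-. In the authors' deposited table of mean read counts for AntNPC, by contrast, Eed was lower in EED-/- (2496 against 3723). Every direction between genotypes below therefore rests on the label.

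The cell type labels were checked against marker lists. The summed level of 12 naive pluripotency markers was 626 to 1435 FPKM in the mESC libraries of both genotypes, 9.76 to 13.8 FPKM in WT AntNPC and 89.7 to 147 FPKM in EED-/- AntNPC. The sum of 12 neural progenitor markers was 125 to 191 FPKM in mESC, 350 to 417 FPKM in WT AntNPC and 259 to 306 FPKM in EED-/- AntNPC. Of these 12, Fabp7 was listed at 0 in both WT mESC libraries. Replicate 1 stood apart in both AntNPC groups: the log2 profiles of replicates 2 to 4 correlated with each other at r = 0.996 to 0.997 across genes, and replicate 1 with them at 0.956 to 0.964. In both AntNPC groups replicate 1 had the highest sums of formative epiblast, naive pluripotency and endoderm markers, and the lowest of neural progenitor, neuron and mesoderm markers. For the 10 formative epiblast markers the sum was 546 against 392 to 423 FPKM in WT and 341 against 167 to 185 FPKM in EED-/-, and for the 8 endoderm markers 5.01 against 1.63 to 1.97 FPKM and 37.8 against 21.4 to 21.9 FPKM. For the 12 neural progenitor markers it was 350 against 415 to 417 FPKM and 259 against 296 to 306 FPKM. Other neural genes went the other way. For 8 SOX partners of POU factors the sum was 340 against 294 to 328 FPKM in WT and 188 against 156 to 165 FPKM in EED-/-. For 10 neural targets of POU and SOX factors it was 228 against 197 to 202 FPKM and 136.0 against 128.1 to 135.7 FPKM. Results of the members that rest on AntNPC are therefore also given for replicates 2 to 4. For genes of the lists without markers they are given where a named call was lost.

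In the GENCODE M21 annotation of GRCm38, every member is a gene of 1 exon. Pou3f1 lies on the plus strand of chromosome 4 from 124656807 to 124660655, and Pou3f2 on the minus strand of the same chromosome from 22482780 to 22488366. Pou3f3 lies on the plus strand of chromosome 1 from 42695768 to 42703176, and Pou3f4 on the plus strand of chromosome X from 110814280 to 110817207. The library kit does not mark strand. The first 363 bp of Pou3f1 overlap the antisense gene Gm2164, and all 7409 bp of Pou3f3 lie inside the sense-overlapping gene AC122898.1. Neither is a row of the table, and reads from them cannot be told apart from reads of the members. The members themselves are similar in the part that encodes the POU domain. The longest run of identical bases between any 2 of the transcripts in the same orientation was 38 bases, between the coding sequences of Pou3f1 and Pou3f2, and is shown because a read inside it cannot be placed on 1 of the 2 genes:
Pou3f1 and Pou3f2, shared coding run: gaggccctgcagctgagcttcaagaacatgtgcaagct

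The other 5 pairs shared at most 23 to 29 bases in the same orientation. In the opposite orientation Pou3f2 shared runs of 38 bases with Pou3f3 and with Pou3f4.

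Since the members rose together with differentiation of WT cells, the sequence before the start site is shown for the 3 members that RefSeq's promoter table (GRCm38.p6) holds. The strand is that of the gene. Capitals mark CCAAT, the CCAAT-box motif, which was chosen after the sequences were seen and searched on both strands. For Pou3f4 the window ends before the GENCODE start site, which lies upstream of the RefSeq one.
Pou3f2, chr4:22488367-22488616, minus strand: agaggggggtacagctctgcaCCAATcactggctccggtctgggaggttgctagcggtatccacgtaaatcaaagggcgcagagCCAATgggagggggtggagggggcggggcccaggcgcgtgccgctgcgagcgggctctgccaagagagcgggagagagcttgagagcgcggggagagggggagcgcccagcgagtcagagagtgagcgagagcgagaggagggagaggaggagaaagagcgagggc
Pou3f3, chr1:42695518-42695767, plus strand: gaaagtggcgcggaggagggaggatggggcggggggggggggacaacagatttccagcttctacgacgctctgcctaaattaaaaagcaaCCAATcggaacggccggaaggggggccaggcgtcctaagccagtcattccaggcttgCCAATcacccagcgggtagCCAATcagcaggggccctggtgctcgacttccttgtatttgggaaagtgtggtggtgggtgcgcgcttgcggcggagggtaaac
Pou3f4, chrX:110814129-110814279, plus strand: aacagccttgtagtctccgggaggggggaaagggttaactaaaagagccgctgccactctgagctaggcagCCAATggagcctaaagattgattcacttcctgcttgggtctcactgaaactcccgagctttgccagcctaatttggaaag

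In the 250 bases before the RefSeq start, Pou3f2 held 2 CCAAT motifs, Pou3f3 held 3 and Pou3f4 held 3, of which 1 is in the stretch printed. Of 32851 such windows in the table, 33.8% held at least 1, 10.1% at least 2 and 2.79% at least 3. The windows of Pou3f2, Pou3f3 and Pou3f4 held 18, 15 and 13 CpG dinucleotides, against a median of 6 over all windows; 78.3%, 72.7% and 68.5% of windows held fewer. Of the 13 of Pou3f4, 3 lie in the stretch printed and the others after the GENCODE start. The octamer ATGCAAAT, to which POU factors bind, was in none of the 3 windows on either strand and in 1.60% of all windows.

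Pou3f1 was the highest member in all 12 libraries. FPKM is scaled by transcript length, so levels can be set side by side between genes. WT mESC held 2.40 and 0.897 FPKM of Pou3f1, and EED-/- mESC held 4.39 and 3.66 FPKM. WT AntNPC held 8.68, 3.70, 3.57 and 3.74 FPKM in replicates 1 to 4, and EED-/- AntNPC held 6.49, 2.87, 2.88 and 2.89 FPKM. The WT mESC were the low group, replicate 1 was the high library in both AntNPC groups, and the other 3 groups overlapped. In order of group mean, Pou3f1 stood at 4.92 ± 2.51 FPKM in WT AntNPC (SD, n = 4), 4.02 ± 0.512 in EED-/- mESC (n = 2), 3.78 ± 1.80 in EED-/- AntNPC (n = 4) and 1.65 ± 1.06 in WT mESC (n = 2). Between 49.3% and 57.1% of all genes in the table were lower than it in each group, so it was a gene of middle level.

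Pou3f2 was near 0 in mESC and highest in WT AntNPC replicates 2 to 4. Its level was 0.0287 and 0.00476 FPKM in WT mESC and 0.0362 and 0.171 FPKM in EED-/- mESC. In AntNPC it was 0.235, 1.54, 1.21 and 1.18 FPKM in WT replicates 1 to 4 and 0.599, 0.537, 0.354 and 0.465 FPKM in EED-/-. WT replicate 1 lay below all 4 EED-/- libraries, while the other WT libraries lay above them. The group means were 1.04 ± 0.562 FPKM in WT AntNPC and 0.489 ± 0.105 in EED-/- AntNPC (SD, n = 4 each). Without replicate 1 they were 1.31 ± 0.199 and 0.452 ± 0.0923 FPKM (n = 3 each).

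Pou3f3 had the same layout at a higher level. WT mESC held 0.0779 and 0.0142 FPKM of it, and EED-/- mESC held 0.105 and 0.209 FPKM. WT AntNPC held 0.515, 2.09, 1.80 and 1.95 FPKM in replicates 1 to 4, and EED-/- AntNPC held 1.03, 1.02, 0.800 and 0.952 FPKM. Again WT replicate 1 lay below every EED-/- library and replicates 2 to 4 above them. The means were 1.59 ± 0.726 and 0.950 ± 0.106 FPKM (SD, n = 4 each), and 1.95 ± 0.141 and 0.923 ± 0.111 FPKM without replicate 1 (n = 3 each).

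Pou3f4 was the member with the widest gap between the AntNPC groups. It was listed at 0 in replicate 1 of both mESC groups and stood at 0.0187 FPKM in WT and 0.0337 FPKM in EED-/- mESC replicate 2. WT AntNPC held 0.404, 1.82, 2.47 and 2.12 FPKM, and EED-/- AntNPC held 0.253, 0.214, 0.256 and 0.156 FPKM. All 4 WT libraries lay above all 4 EED-/- libraries, with WT replicate 1 nearest to them. The means were 1.70 ± 0.905 and 0.220 ± 0.0468 FPKM (SD, n = 4 each), and 2.13 ± 0.324 and 0.208 ± 0.0504 FPKM without replicate 1 (n = 3 each).

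**Figure D1:**
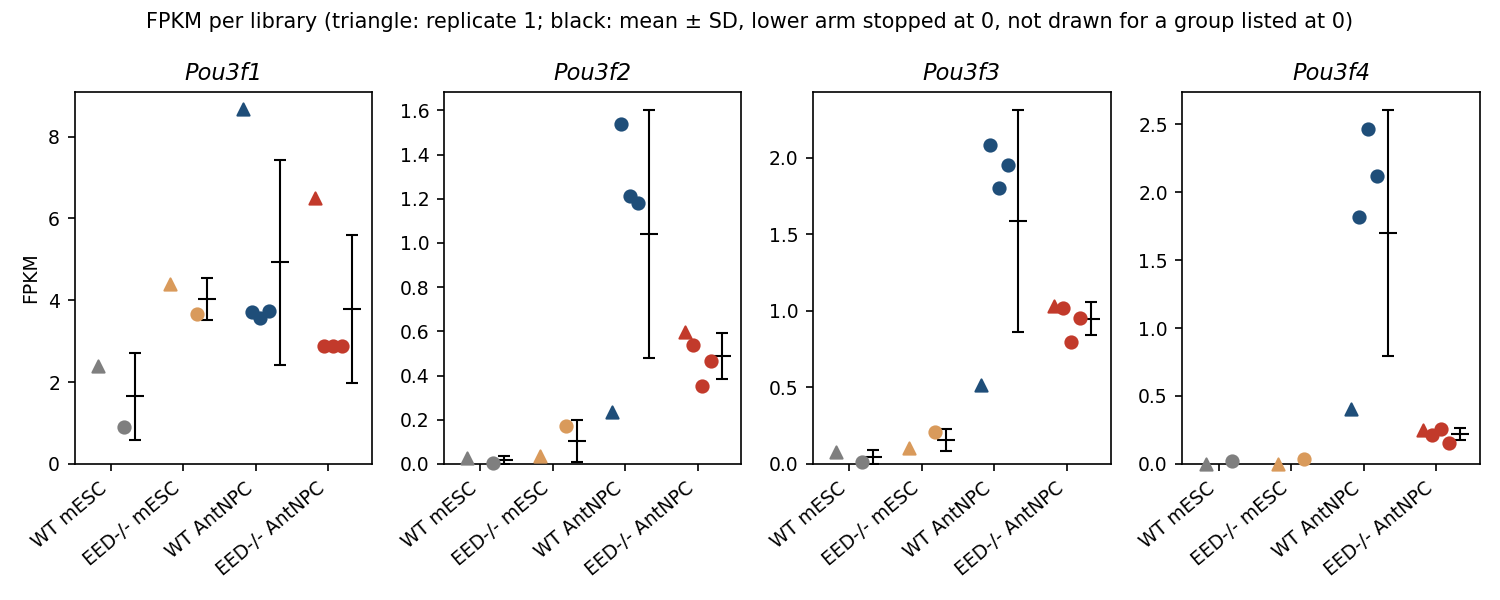
FPKM of each class III POU gene in the 12 libraries, by group, each panel on its own linear axis; points are libraries, triangles replicate 1, black bars the mean ± SD. Pou3f1 is present in every group, whereas Pou3f2, Pou3f3 and Pou3f4 sit at or below 0.209 FPKM in mESC, and WT AntNPC replicate 1 lies apart from replicates 2 to 4 for all 4 genes.

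The sum over the members and its makeup differed between libraries. The sum was 8.99 to 9.84 FPKM in all 4 WT AntNPC libraries, although their makeup was unlike: Pou3f1 made up 88.3% of it in replicate 1 and 39.5% to 41.6% in replicates 2 to 4. In EED-/- AntNPC the sum was 8.37 FPKM in replicate 1, of which Pou3f1 made up 77.5%, and 4.29 to 4.64 FPKM in the others, of which it made up 61.9% to 67.1%. In mESC the sum was 2.51 and 0.935 FPKM in WT and 4.53 and 4.08 FPKM in EED-/-, with Pou3f1 at 89.8% to 96.9%. Pou3f2, Pou3f3 and Pou3f4 together reached 5.25 to 5.48 FPKM in WT AntNPC replicates 2 to 4, 1.15 FPKM in WT replicate 1 and 1.41 to 1.88 FPKM in EED-/- AntNPC.

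**Figure D2:**
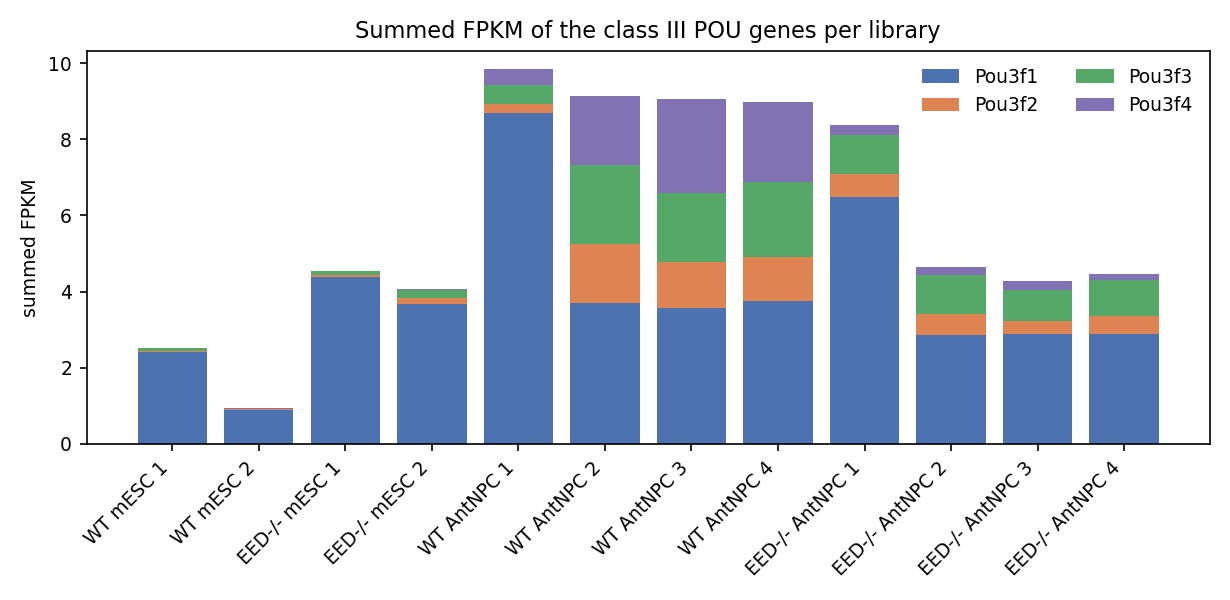
Stacked FPKM of the 4 class III POU genes in each library (vertical axis, linear, from 0). The 4 WT AntNPC bars have nearly the same height, 8.99 to 9.84 FPKM, while the share of Pou3f1 (lowest segment) is 88.3% in replicate 1 and 39.5% to 41.6% in replicates 2 to 4.

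Which members are induced when WT cells become neural progenitors was asked by comparing AntNPC with mESC in WT. All 4 rose, and for none did the groups overlap, although the share of all genes without overlap was not counted. The background was high: 30.1% of the 13678 genes tested rose in this comparison and 48.2% changed. Changes were estimated as log2 fold changes of FPKM + 1 with limma, which understates the change of low genes, and "rose" and "fell" mean a Benjamini-Hochberg adjusted p under 0.05. Pou3f4 rose by 1.34 ± 0.28 (SE; adjusted p = 0.00250), Pou3f3 by 1.25 ± 0.24 (adjusted p = 0.00147) and Pou3f2 by 0.96 ± 0.23 (adjusted p = 0.00607). For these 3 genes WT mESC stood at no more than 0.0779 FPKM. Pou3f2 and Pou3f4 reached 1 FPKM only in WT AntNPC replicates 2 to 4, and so entered the test only through the group in which they are high. Pou3f3 reached 1 FPKM only in AntNPC libraries, of both genotypes, and so entered only through the cell type in which it is high. Pou3f1, which mESC already expressed, rose by 1.14 ± 0.38 (adjusted p = 0.0295), and its mean was 2.98-fold higher in AntNPC. The mean was 62.2-fold higher for Pou3f2 and 34.5-fold higher for Pou3f3, from mESC levels near 0. With a pseudocount of 0.1 in place of 1 the rises were 1.56, 3.08, 3.41 and 3.81 for Pou3f1 to Pou3f4 (adjusted p = 0.0206, 0.000998, 0.000154 and 0.000186), so Pou3f1 then had the smallest. With AntNPC replicates 2 to 4 alone they were 0.88, 1.18, 1.49 and 1.63 (adjusted p = 0.0141, 5.80e-05, 1.06e-05 and 7.71e-06). In that fit 44.6% of the genes tested changed. The Pou3f1 call rested on single libraries: the adjusted p was 0.231 without WT mESC replicate 2, where the rise was 0.72, and 0.0528 without WT AntNPC replicate 1, where it was 0.88.

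Between the genotypes in AntNPC, Pou3f4 fell, and the other members were lower on average without passing the test. Of all genes tested, 7.75% fell and 26.1% changed. Pou3f4 fell by 1.07 ± 0.23 on the log2 scale (adjusted p = 0.00512), and its mean FPKM was 7.75-fold lower in EED-/-, or 10.2-fold lower in replicates 2 to 4. Here too Pou3f2 and Pou3f4 entered the test only through WT AntNPC, the group in which they are high. Without the filter on low values the adjusted p of Pou3f4 was 0.0132. Within replicates 2 to 4 its difference was -1.37 (adjusted p = 2.56e-05). Pou3f4 kept the call when any of the 12 libraries was left out, with adjusted p from 7.26e-06 to 0.0191, and with a pseudocount of 0.1 in place of 1 the difference was -2.27 (adjusted p = 0.00299). For Pou3f2 the difference was -0.41 ± 0.19 (adjusted p = 0.153) and for Pou3f3 -0.36 ± 0.20 (adjusted p = 0.236). Both calls turned on WT replicate 1: without it the differences were -0.63 (adjusted p = 0.00124) and -0.60 (adjusted p = 0.00122), and within replicates 2 to 4 they were -0.67 (adjusted p = 0.00156) and -0.62 (adjusted p = 0.00178). In that fit to replicates 2 to 4, 23.1% of the genes tested changed. For Pou3f1 the difference was -0.29 ± 0.31 (adjusted p = 0.573), with a 95% confidence interval from -0.98 to 0.39. It was -0.031 without WT replicate 1 and -0.53 without EED-/- replicate 1 (adjusted p = 0.959 and 0.246). Within replicates 2 to 4 it was -0.27 (adjusted p = 0.451). In a fit to the AntNPC libraries alone with the replicate number as a block, the Pou3f1 difference of -0.29 passed (adjusted p = 0.0206), as did 56% of the genes tested there.

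Ratios within a replicate number show how the members differ. The numbers are not known to pair replicates 2 to 4, so these ratios are not separate tests. The EED-/- level over the WT level of the same number was 0.747, 0.775, 0.805 and 0.772 for Pou3f1 in replicates 1 to 4. Pou3f1 was thus lower at each number by a like amount. For Pou3f4 the ratio was 0.626, 0.117, 0.104 and 0.0735, lower at each number but much less so in replicate 1. For Pou3f2 it was 2.55, 0.349, 0.293 and 0.394, and for Pou3f3 2.00, 0.487, 0.443 and 0.488. Both were thus higher in EED-/- in replicate 1 and lower at the other 3 numbers.

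**Figure D3:**
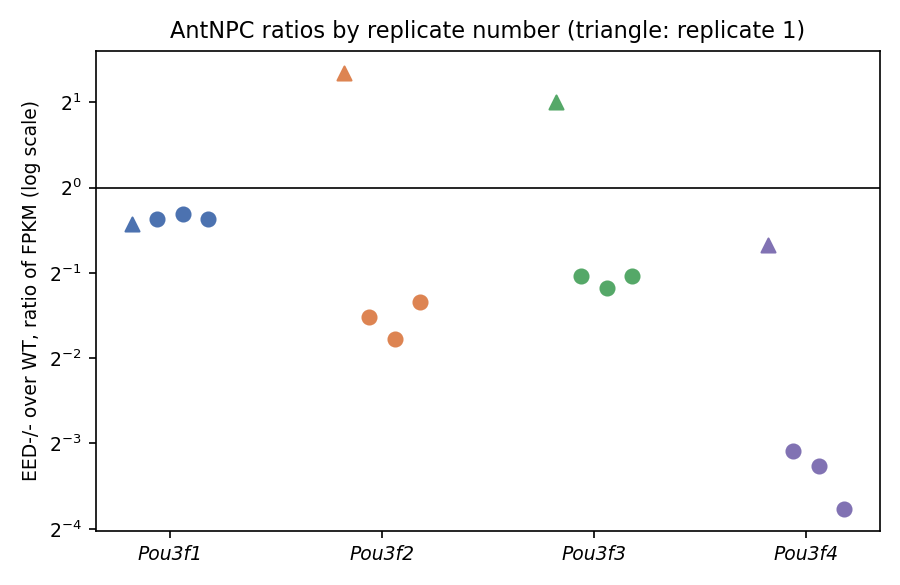
Ratio of FPKM in EED-/- over WT AntNPC for libraries of the same replicate number, by gene, on a log2 axis; triangles are replicate 1 and the line marks equal levels. Pou3f1 lies between 0.747 and 0.805 at all 4 numbers, and replicate 1 of Pou3f2 and Pou3f3 lies above the line at 2.55 and 2.00.

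The authors' deposited table gives mean read counts and p-values for the same AntNPC groups, made separately from the FPKM. There the authors' mean count in EED-/- and in WT was 26.6 against 239 for Pou3f4 (p listed as 0), 120 against 275 for Pou3f2 (p = 0.00384), 313 against 580 for Pou3f3 (p = 0.00640) and 593 against 874 for Pou3f1 (p = 0.184). The authors' deposited table has a p under 0.05 for 52.2% of its 21253 genes, 25.3% of them all with a lower mean in EED-/-. Its p is under 0.05 for the same 3 members that passed in replicates 2 to 4 of the FPKM, and the submitters' processing notes name DESeq2, a test on counts, for 8 of the 12 libraries and for 0 of the replicate 1 libraries. The sources used here do not give which libraries entered those means.

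Between the genotypes in mESC, Pou3f1 was higher in EED-/-, with no overlap between the groups of 2, and did not pass the test. The share of all genes without overlap was not counted here either. The difference was 0.98 ± 0.44 (adjusted p = 0.146), against a median of 0.29 over all genes tested, of which 22.7% changed, 20% rising and 2.73% falling. Its mean was 2.44-fold higher. After quantile normalization the difference was 0.44 (adjusted p = 0.521). The same difference had an adjusted p of 0.0447 with the replicate number as a block, although same-numbered mESC libraries deviated in opposite directions (r = -0.67), and of 0.0241 in the fit without AntNPC replicate 1. In fits to the 4 mESC libraries alone the adjusted p was 0.577, and 1.00 with the block. Without WT mESC replicate 2 the difference was 0.56 (adjusted p = 0.418). Pou3f2 and Pou3f3 were also higher in both EED-/- libraries than in either WT library, but at 0.0362 to 0.209 FPKM, and their differences were 0.12 ± 0.27 (adjusted p = 0.827) and 0.14 ± 0.28 (adjusted p = 0.785). For Pou3f4 the difference was 0.01 ± 0.33 (adjusted p = 0.990), between groups that each hold a library listed at 0. After quantile normalization these 3 differences were -0.05, -0.08 and -0.07, so no direction is given for them.

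With differentiation of EED-/- cells 1 member passed the test over all 12 libraries, Pou3f3. It rose by 0.75 ± 0.24 (adjusted p = 0.0372), where 14.4% of genes rose and 31% changed. With a pseudocount of 0.1 the rise was 2.05 (adjusted p = 0.00905). No mESC library reached 1 FPKM of Pou3f3, so it entered the test only through AntNPC, where it is high. Without the filter on low values the limma test did not call it (adjusted p = 0.0558). The call was also lost with the replicate block (0.68, adjusted p = 0.143) and when any of the 6 EED-/- libraries was left out, with rises of 0.69 to 0.82. The AntNPC groups of Pou3f2 and Pou3f4 also lay above the mESC groups in every library, a trait not counted over all genes. Their differences were 0.43 ± 0.23 (adjusted p = 0.183) and 0.26 ± 0.28 (adjusted p = 0.504). With a pseudocount of 0.1 they were 1.60 (adjusted p = 0.0570) and 1.45 (adjusted p = 0.0718). Pou3f1 was -0.13 ± 0.38 (adjusted p = 0.811) with overlapping groups, and 0.12 with the replicate block. With AntNPC replicates 2 to 4 alone the differences were -0.37, 0.40, 0.73 and 0.25 for Pou3f1 to Pou3f4 (adjusted p = 0.256, 0.0291, 0.00122 and 0.121). In that fit 29.2% of the genes tested changed.

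Whether the change with differentiation differed between the genotypes was tested as an interaction, which 15.3% of genes passed, 11.3% with a negative estimate, that is, a change that was lower in EED-/-, and 3.98% with a positive one. No member passed: the estimate was -1.27 ± 0.54 for Pou3f1 (adjusted p = 0.151), -1.08 ± 0.40 for Pou3f4 (adjusted p = 0.0992), -0.52 ± 0.33 for Pou3f2 (adjusted p = 0.359) and -0.50 ± 0.35 for Pou3f3 (adjusted p = 0.406). The median over all genes was -0.20. Without AntNPC replicate 1 all 4 passed, at -1.25 (adjusted p = 0.0343), -1.38 (adjusted p = 0.000758), -0.78 (adjusted p = 0.0119) and -0.76 (adjusted p = 0.0106) in the same order, where 15.8% of genes passed. Each of these comparisons shares a group with the others, so they are not independent.

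**Figure D4:**
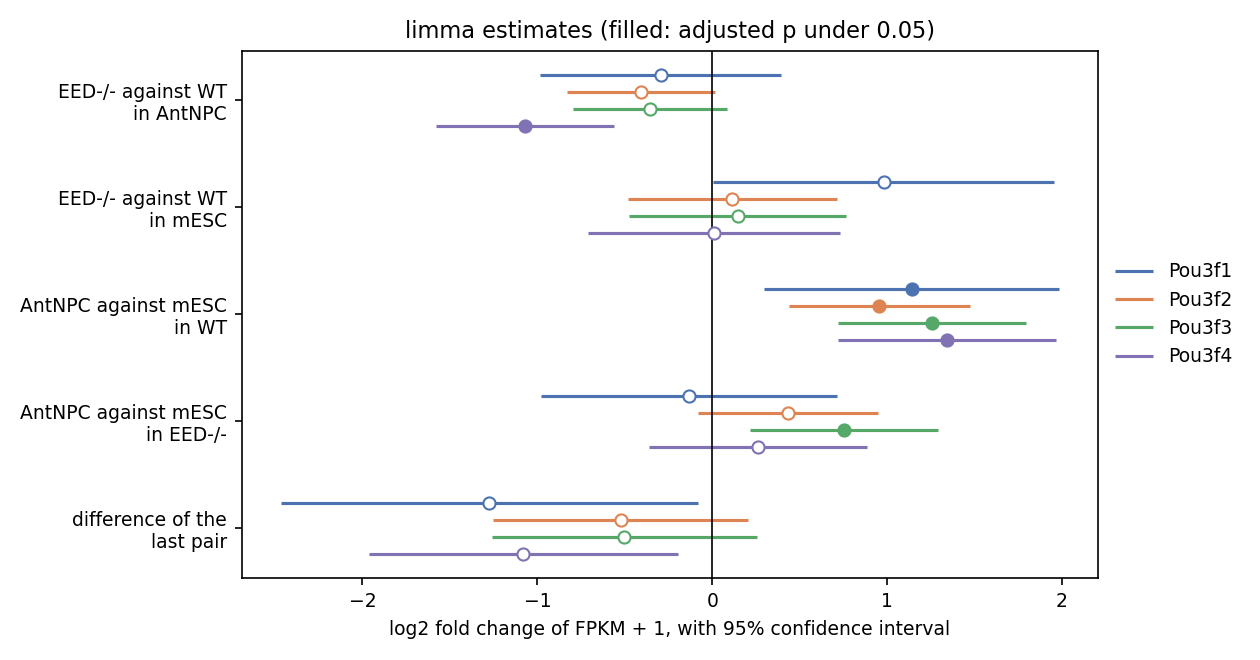
limma log2 fold change of FPKM + 1 (horizontal axis) with its 95% confidence interval for each class III POU gene in the 5 comparisons, over all 12 libraries; filled points have an adjusted p under 0.05. All 4 genes are filled for AntNPC against mESC in WT, Pou3f4 alone for EED-/- against WT in AntNPC and Pou3f3 alone for AntNPC against mESC in EED-/-.

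The SOX genes that encode partners of POU factors moved with differentiation and with the genotype label. Of the 8 listed, 7 were tested. With differentiation of WT cells 6 rose and 0 fell, where 30.1% of all genes rose. The median was 3.33 against 0.17 over all genes. Sox3 rose by 4.09 ± 0.20 (adjusted p = 9.78e-08), and Sox1, a marker of early neuroectoderm, rose by 3.25 ± 0.19 (adjusted p = 3.53e-07). Sox2, the partner shared by stem cells and neural progenitors, was at 115 ± 8.94 FPKM in WT mESC and 108 ± 7.41 FPKM in WT AntNPC. In EED-/- against WT AntNPC 5 fell and 0 rose, where 7.75% of all genes fell. The median was -0.87 against 0.05 over all genes. Sox21 fell by 3.52 ± 0.29 on the log2 scale, from a mean of 29.1 to 1.72 FPKM (adjusted p = 7.42e-06). Sox3 fell from 30.5 to 9.66 FPKM (adjusted p = 3.07e-05) and Sox12 from 39.9 to 20.6 FPKM (adjusted p = 0.000749). Sox2 fell from 108 to 65.9 FPKM (adjusted p = 0.00473) and Sox11 from 60.2 to 32.7 FPKM (adjusted p = 0.0152). The count was also 5 in replicates 2 to 4 and whichever library was left out, and Sox11 did not pass with a pseudocount of 0.1 (adjusted p = 0.0608). Sox1 was at 14.9 ± 1.25 FPKM in WT and 12.2 ± 2.06 FPKM in EED-/- AntNPC and did not pass.

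In mESC 1 SOX gene rose and 1 fell in EED-/-, where 20% of all genes rose and 2.73% fell. Sox3 rose by 0.76 ± 0.23 (adjusted p = 0.0324) and Sox12 fell by 0.71 ± 0.21 on the log2 scale (adjusted p = 0.0287). Neither passed with the replicate block (adjusted p = 0.103 and 0.0774), and Sox3 did not pass after quantile normalization (adjusted p = 0.776). In a fit to the mESC libraries alone neither passed (adjusted p = 0.568 and 0.768). With differentiation of EED-/- cells 5 rose and 0 fell, where 14.4% of all genes rose. The 5 were Sox1, Sox11, Sox3, Sox12 and Sox4, of which Sox4 did not pass with the block (adjusted p = 0.0573). Of all genes 11.3% passed the interaction with a negative estimate. The interaction was negative for Sox3, Sox21 and Sox11, at -2.35 ± 0.28, -3.83 ± 0.50 and -1.30 ± 0.40 (adjusted p = 0.000351, 0.000646 and 0.0479). Sox11 did not pass there without AntNPC replicate 1 (adjusted p = 0.0635) or with the block (adjusted p = 0.122).

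Of the 11 genes listed as neural targets of POU and SOX factors, 10 were tested. With differentiation of WT cells 6 rose and 1 fell, with a median of 1.96, where 30.1% of all genes rose and 18.1% fell. Nes, which encodes the progenitor filament nestin, rose by 3.37 ± 0.22 (adjusted p = 6.04e-07) and Pax6, a regulator of forebrain progenitors, by 3.59 ± 0.31 (adjusted p = 3.96e-06). The 1 that fell was Neurog1, from 0.395 to 0.0588 FPKM (adjusted p = 0.0205), which did not pass with the block (adjusted p = 0.0936) or after quantile normalization (adjusted p = 0.0514). Neurog1 was under 1 FPKM in both WT groups and was not tested with those groups compared alone. It passed the filter on low values through EED-/- mESC. In EED-/- against WT AntNPC 4 fell and 1 rose, with a median of -0.70, where 7.75% of all genes fell and 18.3% rose. Hes5, a target of Notch signalling, fell from 8.60 to 1.85 FPKM (adjusted p = 8.18e-05), and Neurog2, a proneural factor, from 3.80 to 0.302 FPKM (adjusted p = 0.00751). The receptor gene Notch1 fell from 13.0 to 8.10 FPKM (adjusted p = 0.0309), a call lost in replicates 2 to 4 (adjusted p = 0.133) and with the block (adjusted p = 0.0990). Sox2, which is in both lists, was the other that fell. Zic1, a regulator of dorsal neural and crest cells, rose from 1.21 to 14.3 FPKM (adjusted p = 1.85e-05).

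In mESC 2 of the 10 genes tested from this list rose in EED-/- and 0 fell. That is no more than the share of all genes, of which 20% rose and 2.73% fell. Nes went from 1.08 to 15.6 FPKM (adjusted p = 1.70e-05), and Neurog1 from 0.395 to 2.21 FPKM (adjusted p = 0.000144). These p-values take their spread mostly from the AntNPC libraries. In a fit to the mESC libraries alone neither passed (adjusted p = 0.119 and 0.256), and 1 of 12637 genes did. Neurog1 did not pass after quantile normalization (adjusted p = 0.131). It entered this and the following comparisons through EED-/- mESC, the group in which it is high. With differentiation of EED-/- cells 4 rose, namely Zic1, Pax6, Hes5 and Notch1, and Neurog1 fell, where 14.4% of all genes rose and 16.7% fell. Notch1 did not pass with the replicate block (adjusted p = 0.0718). In the interaction Nes, Neurog1 and Hes5 were negative, at -2.91 ± 0.31, -0.95 ± 0.17 and -1.62 ± 0.34 (adjusted p = 0.000210, 0.00415 and 0.00958). Zic1 was positive at 2.36 ± 0.47 (adjusted p = 0.00653). Of all genes 11.3% passed the interaction with a negative estimate and 3.98% with a positive one. With a pseudocount of 0.1, Neurog1 and Zic1 did not pass there (adjusted p = 0.155 and 0.189).

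Of 11 POU genes of the other classes, 6 were tested. With differentiation of WT cells 0 rose and 2 fell, where 30.1% of all genes rose and 18.1% fell. Pou5f1, the pluripotency factor Oct4, fell by 5.49 ± 0.49 on the log2 scale (adjusted p = 5.64e-06) and Pou2f3 fell by 2.43 ± 0.30 (adjusted p = 5.78e-05). Fewer than 2 AntNPC libraries reached 1 FPKM of Pou2f3. It thus passed the filter on low values only with mESC, the cell type in which it is high. With differentiation of EED-/- cells Pou5f1 fell by 2.66 ± 0.49 (adjusted p = 0.00193) and Pou2f3 fell by 1.93 ± 0.30 (adjusted p = 0.000621). In EED-/- against WT AntNPC 3 rose and 0 fell, where 18.3% of all genes rose, with a median of 0.35 against 0.05 over all genes. After quantile normalization 2 rose and 1 fell, with a median of 0.023. Pou5f1 rose from 22.3 ± 16.7 to 77.7 ± 17.2 FPKM (SD, n = 4 each; adjusted p = 0.00374), beside the higher naive pluripotency marker sum given above, of whose 12 genes 11 rose. Pou6f1 rose from 1.09 to 4.52 FPKM in AntNPC (adjusted p = 0.000185) and from 1.72 to 6.46 FPKM in mESC (adjusted p = 0.00214). Its rise in mESC did not pass in a fit to the mESC libraries alone (adjusted p = 0.354). Pou2f3 rose by 0.72 ± 0.24 (adjusted p = 0.0487), which was lost in replicates 2 to 4 (adjusted p = 0.203) and with the block (adjusted p = 0.0902). The rise was also lost without the filter (adjusted p = 0.0838) and after quantile normalization (adjusted p = 0.0920). It was not tested with the AntNPC groups compared alone. In the interaction Pou5f1 was the 1 gene called, at 2.83 ± 0.69 (adjusted p = 0.0185), where 3.98% of all genes passed with a positive estimate.

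**Figure D5:**
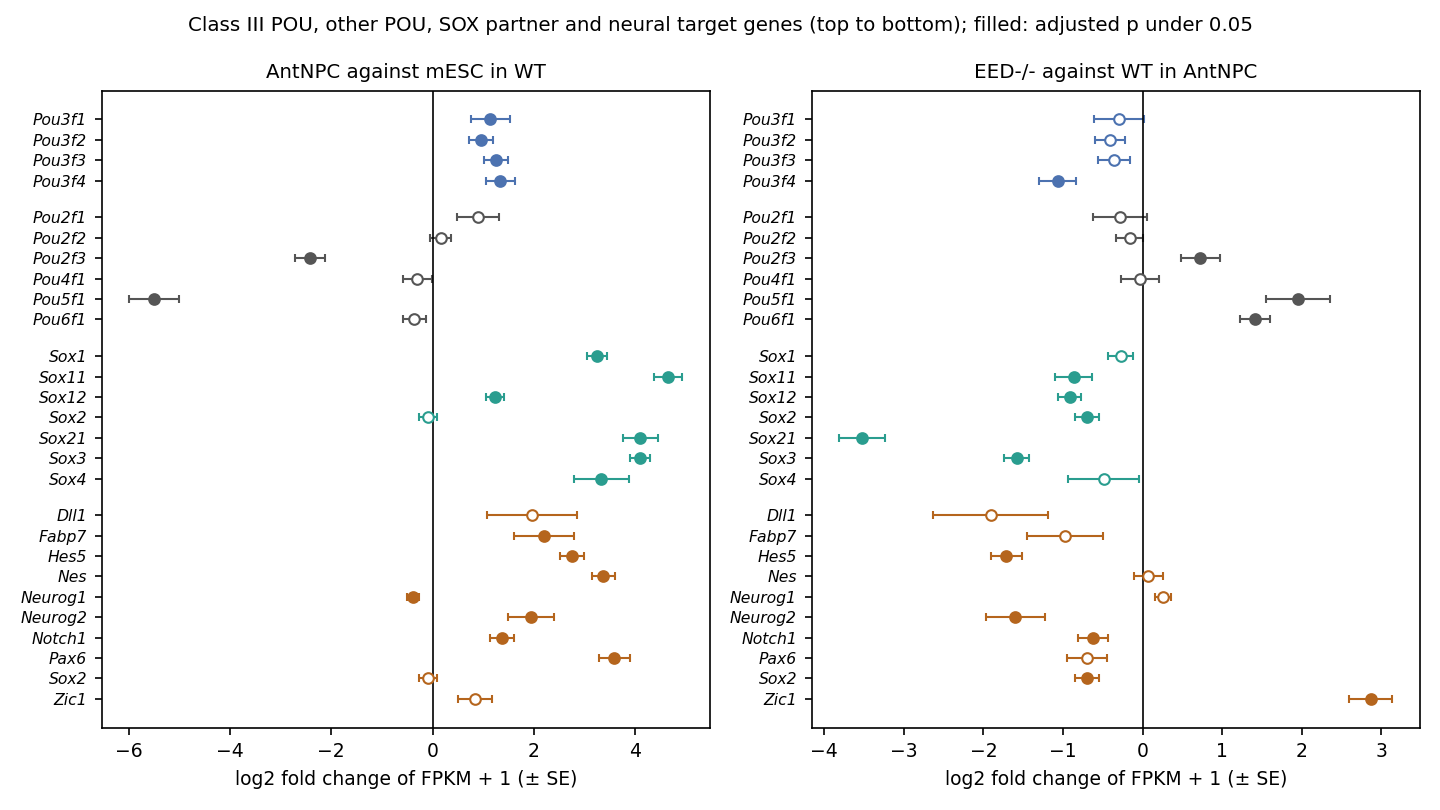
limma log2 fold change of FPKM + 1 ± SE (horizontal axes, each panel on its own scale) for the class III POU genes, the other POU genes tested, the SOX partners and the neural target genes, with differentiation of WT cells (left) and between genotypes in AntNPC (right); filled points have an adjusted p under 0.05. On the right 5 of 7 SOX genes are filled and lie below 0, and the 3 filled POU genes of other classes lie above it. Of all genes tested 7.75% fell and 18.3% rose in that comparison.

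Markers of other cell types moved with the genotype label beside these groups. In EED-/- against WT AntNPC, 9 of 10 trophoblast markers tested rose, with summed levels of 286 to 446 FPKM against 36.1 to 41.9 FPKM. All 6 mesoderm markers tested, 6 of 7 endoderm markers and 6 of 9 neural crest and Schwann cell markers also rose. Of 12 neural progenitor markers 6 fell and 1 rose, of 9 neuron markers 3 fell and 2 rose, and of 10 formative epiblast markers 3 fell and 2 rose. Of all genes tested 18.3% rose and 7.75% fell, so the rises among neuron and formative epiblast markers were near the share of all genes. The part of these cell types in the lower levels of Pou3f4 and the SOX genes was not tested.

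Genes with the pattern most like each member were found by the root-mean-square distance between profiles of log2(FPKM + 1) over the 12 libraries, each centred on its mean. The search took in 10318 genes whose highest group mean was at least 5 FPKM, a level that no member reached. For Pou3f1, whose own profile has an SD of 0.55, the nearest were Fem1b (distance 0.28), Nlk (0.32) and Abhd5 (0.32). Fem1b, for example, had means of 25.0, 43.6, 47.3 and 39.3 FPKM in WT mESC, EED-/- mESC, WT AntNPC and EED-/- AntNPC. For Pou3f2 (SD 0.44) they were Ppt1 (0.15), Cspp1 (0.16) and Zfp61 (0.18), and for Pou3f3 (SD 0.55) Cspp1 (0.17), Igsf9 (0.18) and Ppt1 (0.18), so 2 of 3 were shared by these members. For Pou3f4 (SD 0.65) they were Crocc (0.21), Khdrbs3 (0.23) and Zfp61 (0.24). Crocc stood at 7.48, 7.75, 26.1 and 10.5 FPKM in the order of groups above. The higher level of these genes was set by that limit and is not a result. Their fold changes are smaller, since the scale compresses the low members.

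The 4 genes of the table that lie nearest to each member, 2 on either side, were taken as neighbours after the main results were seen. Of these 16 genes 10 were tested, and between genotypes in AntNPC 0 rose and 0 fell, with differences from -1.03 to 0.51. Of all genes tested 26.1% changed there. With differentiation of WT cells 4 rose and 1 fell, where 30.1% of all genes rose and 18.1% fell. With so few genes tested, no result about the neighbours is drawn from these counts. Faxc, 485.9 kb from Pou3f2, rose with differentiation of WT cells by 2.57 ± 0.20 (adjusted p = 2.28e-06) and differed by -0.04 ± 0.17 between genotypes in AntNPC (adjusted p = 0.916). Fbxl4, 48.7 kb from Pou3f2, differed by 0.51 ± 0.23 there (adjusted p = 0.137). Gpr45, 249.7 kb from Pou3f3, rose by 1.38 (adjusted p = 0.000563) and differed by 0.11 (adjusted p = 0.748), and Utp11l, 17.5 kb from Pou3f1, differed by 0.13 ± 0.16 (adjusted p = 0.615). The 1 neighbour of Pou3f4 that was tested, Sh3bgrl at 1616.4 kb, rose by 4.24 (adjusted p = 0.000220) and differed by -1.03 (adjusted p = 0.177). Genes of at least 5 FPKM on chromosomes 1, 4 and X had median differences of -0.03, -0.05 and -0.05 between genotypes in AntNPC, against 0.0026 to 0.0037 for the genes of all other chromosomes together. Single chromosomes without a member differed more: the median was 0.51 on chromosome 3, 0.57 on chromosome 6 and 0.40 on chromosome 8.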

How the data were processed

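RNA was profiled in 12 libraries. The authors deposited 1 table with a value per gene and library, taken as FPKM. The submitters' processing notes name TopHat2, Cufflinks, SAMtools, FastQC and DESeq2 and the build GRCm38 (mm10); the header does not name the unit, and versions are not given in the sources used. The table also holds the authors' mean read counts per AntNPC group, a normalized signal deposited by the authors, and the authors' deposited p-values, not stated to be adjusted. Read depth is unknown, because FPKM do not keep it; FPKM summed to 453550 to 864235 per library. Per the labels, polyadenylated RNA was made into libraries with a TruSeq v2 kit.

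Values were tested as log2(FPKM + 1) with limma 3.58.1 (limma-trend, R 4.3.3), two-sided, in 1 model of 4 group means. The fit took in all 12 libraries (degrees of freedom: 8 residual, 2.93 prior). A gene was tested where 2 or more libraries reached 1 FPKM, which held for 13678 genes in each of 5 comparisons, with Benjamini-Hochberg adjustment over all of them and a threshold of 0.05. The script was tested on simulated data. The members and the gene lists were chosen with earlier results of these data known, and 1 gene first listed is not reported here. The rule for named genes took the members, Eed, the 3 genes of most similar pattern per member (highest group mean of at least 5 FPKM, no predicted or RNA genes) and, from each list without markers, up to 2 genes per direction with the smallest adjusted p, or all where 5 or fewer passed.

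Replicate numbers are from the titles, with the library without a number taken as replicate 1. Deviations of same-numbered AntNPC libraries correlated at r = 0.318 to 0.562. Those of libraries 2 to 4 correlated as well across numbers (0.332 to 0.404), so the numbers were not shown to pair them. The replicate 1 libraries went together (0.562) and opposite to all others (-0.48 to -0.43). The labels do not state a pairing, so the main fit had no replicate block. Between genotypes in AntNPC the SE was 0.31, 0.19, 0.20 and 0.23 for Pou3f1 to Pou3f4 without the block. With the block it was 0.18, 0.20, 0.21 and 0.22. In mESC the correlation of same-numbered libraries was -0.67. Alternatives were another pseudocount, no filter, quantile normalization, median scaling, a replicate block, the groups compared alone, AntNPC replicates 2 to 4 alone, and leaving out each library. Gene positions are from GENCODE M21 and promoter sequences from RefSeq.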

Additional observations from a re-analysis of the deposited data

Results flagged for a closer look

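Pou3f1 in WT AntNPC replicate 1 stood at 8.68 FPKM, far from the other 3 libraries of its group at 3.57 to 3.74 FPKM. Pou3f1 in EED-/- AntNPC replicate 1 likewise stood at 6.49 FPKM, against 2.87 to 2.89 FPKM in the other 3. These were 2 of the 8 sets of 4 libraries examined (4 genes in 2 groups) by Dixon's criterion, by which chance marks about 1 set in 20. In both groups the same library had the highest sums of formative epiblast, naive pluripotency and endoderm markers and the lowest of neural progenitor, neuron and mesoderm markers. It also had the highest sums of the SOX partners and of the neural targets of POU and SOX factors. The part of these genes in the Pou3f1 values was not tested.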

How the results depend on the processing

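The fall of Pou3f4 in EED-/- AntNPC and the rise of Pou3f3 with differentiation of WT cells kept their calls under every alternative run, and the rises of Pou3f2 and Pou3f4 in all but 1. In EED-/- against WT AntNPC, Pou3f2 was -0.83 and Pou3f3 -0.80 after quantile normalization (adjusted p = 0.00487 and 0.00692), -0.67 and -0.62 in replicates 2 to 4, and -0.63 to -0.29 and -0.60 to -0.25 over the libraries left out; Pou3f1 was -0.29 with the groups alone and the replicate block. In mESC, Pou3f1 was 0.98 with the replicate block and in the fit without AntNPC replicate 1; quantile normalization gave -0.046, -0.081 and -0.072 for Pou3f2, Pou3f3 and Pou3f4, and Pou3f4 was -0.013 to 0.034 over the libraries left out. With differentiation of WT cells, Pou3f1 was 1.14 without the filter (adjusted p = 0.0620) and with the groups alone (adjusted p = 0.0616), 0.77 after quantile normalization (adjusted p = 0.0939) and 0.72 to 1.56 over the libraries left out. Fitted alone with the block, Pou3f2 was 0.80 (adjusted p = 0.0898) and Pou3f4 0.98 (adjusted p = 0.0510). In EED-/- cells, Pou3f1 was 0.12 with the block and 0.10 with the groups alone and the block. Pou3f2 was 0.40 in replicates 2 to 4 (adjusted p = 0.0291) and 0.34 to 0.52 over the libraries left out, and passed without WT AntNPC replicate 1 (adjusted p = 0.0177). Pou3f3 was 0.75 without the filter (adjusted p = 0.0558), 0.60 after quantile normalization (adjusted p = 0.0559), 0.71 after median scaling (adjusted p = 0.0520), 0.68 with the block, 0.81 with the groups alone and the block, and 0.69 to 0.82 over the libraries left out. The interaction in replicates 2 to 4 was -1.25, -0.78, -0.76 and -1.38 for Pou3f1 to Pou3f4; Pou3f4 was -1.28 after quantile normalization (adjusted p = 0.0485). Over the libraries left out it was -0.75 to -0.40, -0.74 to -0.40 and -1.37 to -0.93 for Pou3f2, Pou3f3 and Pou3f4, and these 3 passed without WT AntNPC replicate 1. The replicate block changed no call of a member other than those named with it, and the cause of each change was not tested.

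Counts of genes called moved more. In EED-/- against WT AntNPC the count was 3567, 6676 with the groups alone and 7189 with the block as well. In mESC it was 3105, 1925 with the replicate block, 1 with the groups alone, 110 with the block as well, 1116 with the numbers crossed (added after seeing the data) and 2396 to 4960 over the libraries left out. With differentiation it was 6588 in WT and 3002 alone with the block; in EED-/- 4245, 2321 with the block, 628 alone with the block and 2206 to 6424 over the libraries left out. For the interaction it was 2086, 1051 with the block and, over the libraries left out, 1495 to 4243. The share of calls that were higher fell from 70.3% to 50% after quantile normalization and 57.8% after median scaling in AntNPC, from 88.0% to 52.2% and 57.1% in mESC, and from 62.5% to 48.3% after median scaling with differentiation of WT cells; for the interaction it went from 26.1% to 46.6% and 45.1%. The groups alone left Pou3f2, Pou3f3 and Pou3f4 untested in mESC, and Pou3f2 and Pou3f4 with differentiation of EED-/- cells, and the interaction has no such fit.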
